A study of Mus musculus with 8 samples.

Results

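The Major urinary protein genes followed here in mouse liver were 8 in number: Mup1, Mup2, Mup3, Mup7, Mup10, Mup15, Mup20 and Mup21. The 8 symbols were picked by name from 24539 gene entries of the RNA-seq values and 25033 of the Ribo-seq values, where 21 and 22 symbols of this family are listed, and none of the 8 was missing. They were picked with the mRNA difference between the groups in view, Mup15 having been noted as the most raised mRNA, so their mRNA values and the ratios that contain them are given here as a description, with no p-value. Where members past a cut-off are counted on these measures, the count restates the choice and nothing is read from it. Footprint values did not enter the choice. The livers came from C57BL/6 mice, males per the study's methods, given a high-fat diet in which fat supplied 45% of the calories. The HF group received the diet alone and the HB group received the same diet with 2% w/v betaine, a methyl donor, dissolved in the water. The diet began at 8 weeks of age and livers were collected at postnatal week 25, which is 17 weeks, while the labels also give 25 weeks of feeding. RNA-seq of polyadenylated mRNA and Ribo-seq of ribosome-protected fragments (RPFs, or footprints) had 2 libraries per group each, 8 libraries in all. The labels name 6 mice per group and pooled preparations, and the methods name 2 mice per group chosen for sequencing, so p-values measure only the spread between these libraries. In whole liver, fewer cells of a type and less RNA per cell cannot be told apart.

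Major urinary proteins are small lipocalins that hepatocytes make in very large amounts. They are secreted into the blood, pass into the urine and carry volatile pheromones in the barrel of the lipocalin fold. Their genes are more active in males than in females, follow the pulses of growth hormone through the kinase JAK2 and the transcription factor STAT5b, and have also been linked to glucose and lipid metabolism in mice.

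The Mup genes form 1 cluster on chromosome 4. In GENCODE M21 on GRCm38, the build that mm10 names, 22 Mup genes lie between 59956804 and 62150863, a span of 2194060 bases that holds no other protein-coding gene. All 8 members lie on the minus strand. The members nearest the start of the chromosome are Mup7 (chr4:60066469-60070475), Mup2 (chr4:60135932-60154289), Mup1 (chr4:60498012-60501960) and Mup10 (chr4:60578260-60582199). Mup15 (chr4:61435790-61439743) lies farther along, and Mup20 (chr4:62050234-62054158), Mup3 (chr4:62083476-62087342) and Mup21 (chr4:62147932-62150863) sit at the far end. Coding sequences of 543 bases, stop codon included, were annotated for Mup1, Mup2, Mup7, Mup10 and Mup15, of 546 bases for Mup20 and Mup21 and of 555 bases for Mup3.

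A pair of coding stretches shows how little tells most members apart at the length of a footprint. Each is 30 bases, read from GENCODE transcripts 5′ to 3′ and aligned without gaps, with bases that differ from Mup10 in capitals. The first was the stretch that split Mup1, Mup2, Mup7, Mup10 and Mup15 into most versions, 4 for the 5 genes. It covers coding bases 13 to 42 of those genes, in exon 1, and lies at chr4:60582047-60582076 in Mup10 and at chr4:61439591-61439620 in Mup15.
Mup10, also Mup2 and Mup20: ctgctgctgtgtttgggactgaccctagtc
Mup1: ctgctgctgtgtGtgggactgaccctagtc
Mup7: ctgctgctgtgtttgggGctgaccctagtG
Mup15: Ttgctgctgtgtttgggactgaccctagtc
Mup21: ctgctgctgtgtttgggactgacTAtagtc
Mup3: ctgctCctgtgtttggAactgacTTtagtc

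The second stretch was the one with most differences over all 8 members. It runs from exon 2 into exon 3, at coding bases 226 to 255 of Mup10, and there Mup1, Mup2 and Mup15 were the same.
Mup10, also Mup7: actgtaagagatgaagagtgctccgaatta
Mup2, also Mup1 and Mup15: actgtaagagatgaagagtgctcGgaatta
Mup20: aTtAtTaTaAatgaGgagtgctcTgaaAta
Mup21: TTtAtTGTaAatgaagagtgcAccgaaAtG
Mup3: TTAAtTGTaAatgaagagtgcAccgaaAtG

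Over whole coding sequences, Mup15 was 99.6% identical to Mup2 and 98.9% to Mup10, and Mup2 was 99.3% identical to Mup10. Mup3 and Mup21 were 94.8% identical to each other and 82.7% and 84.2% to Mup10. Mup20, which encodes the male pheromone darcin, was 90.7% identical to Mup10. All 28-base windows of the Mup2 and Mup15 transcripts also occurred in another Mup gene, as did 98.8% of those of Mup1, 96.9% of Mup7 and 90.6% of Mup10. The shares were 32.5% for Mup3, 32.5% for Mup20 and 38.3% for Mup21. Counting Mup pseudogenes too, the share of Mup20 was 63.7% over the transcript. Over its coding sequence it was 95%, against 46.8% of the coding windows of Mup3 and 41.0% of those of Mup21. The study placed most footprints in coding sequences, but not all of them. The labels name 50 sequencing cycles and the methods 100 for RNA-seq. At 50 bases the shares of Mup2 and Mup15 were 100.0%, and at 100 bases 97.3% each. That of Mup20 was 4.66% at 50 bases, but counting pseudogenes it was 50.1% at 50 bases and 38.8% at 100. Nearly every exact read of Mup15 thus also matched another Mup gene, and how the mapping assigned such reads is not given in the sources used here. Levels of Mup1, Mup2, Mup7, Mup10, Mup15 and Mup20 are uncertain for this reason in both assays, and sums over genes are given beside them.

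**Figure D1:**
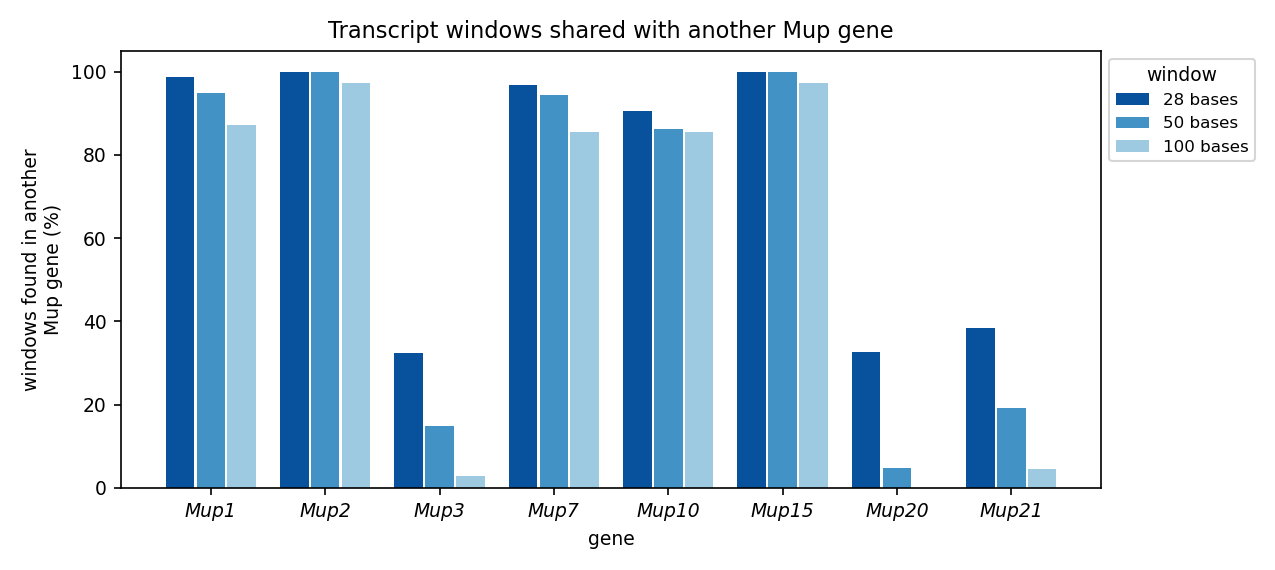
Share of the 28-, 50- and 100-base windows of each member's transcript (%, vertical axis) that occur in a transcript of another Mup gene, for the 8 members (horizontal axis). Mup1, Mup2, Mup7, Mup10 and Mup15 stand above 85% at each length, and Mup3, Mup20 and Mup21 below 40%.

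RNA-seq libraries held 11661207 to 22543471 reads and Ribo-seq libraries 141890 to 1056546, totals recovered from the steps between low RPKM (read counts scaled by gene length and by library total). The 2 HB footprint libraries were the shallowest, at 257086 and 141890 reads. Hepatocyte markers summed to between 44231 and 49676 RPKM in the mRNA and 0 of 6 were called on any measure. The Y-linked genes Ddx3y, Eif2s3y, Kdm5d and Uty were present in every RNA-seq library, and Xist stayed at or below 0.048 RPKM. These 5 together came to 51.5 to 67.1 RPKM in 3 libraries and to 22.6 in HB library 2, which also held the highest mRNA value of 5 members. Of 5 markers of glands that also make Mup proteins, Smr3a, Prol1 and Obp1a were at 0 in all 8 libraries, Lacrt is not among the entries and Amy1, which liver also expresses, was at 116 to 148 RPKM in the mRNA. Of 5 red blood cell genes, 5 lay above 0 in the mRNA difference and 1, Hbb-bs, was called higher, beside 2.3% of all genes and 39.8% above 0. Their summed mRNA was 675 and 523 RPKM in HF and 738 and 2249 RPKM in HB, and none was at 0 in the mRNA. Their summed footprints were 1109 and 617 RPKM in HF and 2559 and 381 in HB, and HB library 1, the highest there, also held the highest footprint value of 7 members. Kupffer cell markers had a median mRNA difference of 0.63, with 4 of 6 above 0 and 0 called. In footprints 6 of 6 lay below 0 and 1, Cd68, was called lower, at 12.7 and 6.99 RPKM in HF and 0 in both HB libraries. At a gene length of 813 bases, the possible one nearest to a GENCODE transcript, Cd68 had 4 and 6 reads in HF. Both HB libraries were at the floor of 3 reads, so nothing is read from this call. Endothelial markers had 0 of 5 called in the mRNA, and in footprints 5 of 5 lay below 0 with 2 called lower. These were Stab2, on 48 and 162 reads in HF and 17 and 6 in HB, and Pecam1, on 16 and 26 against 2 and 1, where both HB libraries were at the floor of 3 reads used here. Of the stellate cell markers 4 of 4 tested lay below 0 in footprints with 0 called. Over all genes 70.4% of footprint differences lay below 0 and 7.86% were called lower. The part of these cell types and libraries in the Mup values was not tested.

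Over the 4 libraries the mRNA levels ran from 1.83 RPKM for Mup15 in HF library 1 to 21384 for Mup10 in HB library 2. Mup10 was the highest in all 4 mRNA libraries, followed by Mup2, Mup3 and Mup20. Mup10 mRNA stood at 13864 and 19003 RPKM in the HF libraries and at 15739 and 21384 in the HB libraries. The groups overlapped, since HF library 2 was above HB library 1. For Mup2 the mRNA levels were 5704 and 8766 RPKM in HF and 8312 and 11151 in HB. They overlapped as well, and of the 8 genes these 2 were the members whose groups did so.

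Mup3 and Mup20 did not overlap between the groups. The Mup3 mRNA was at 4927 and 5495 RPKM in HF and at 8078 and 7062 in HB, a ratio of means of 1.45. Mup20 mRNA measured 1635 and 3460 RPKM in HF and 5020 and 5860 in HB, a ratio of 2.14, with the 2 HF libraries differing from each other by more than the 2 HB libraries. Its log2 difference of 1.19 was 0.65 without HF library 1 and 1.73 without HF library 2. Mup21, in sequence closest to Mup3, had 216 and 349 RPKM in HF and 439 and 403 in HB, a ratio of 1.49. HF library 1 was the lowest of the 4 libraries in all 3 genes.

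The other 3 members had the largest ratios of means. Mup7 was found at 109 and 486 RPKM in HF and 891 and 1488 in HB, a ratio of means of 4.00. The log2 difference of 2.32 was 1.24 without HF library 1 and 3.39 without HF library 2. Mup1, which has been linked to glucose metabolism, was at 65.1 and 223 RPKM in HF and at 243 and 506 in HB, a ratio of 2.60. HF library 2 and HB library 1 lay close together in this gene, and HF library 1 was again the lowest. Its log2 difference of 1.53 was 0.65 without HF library 1 and 2.41 without HF library 2.

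Mup15 had the lowest mRNA level of the 8 and the largest difference. It rested on 19 and 58 reads in the HF libraries and on 1273 and 982 in the HB libraries, or 1.83 and 5.52 RPKM against 63.5 and 61.1. The exact Poisson 95% intervals, which cover counting error only, were 1.10 to 2.86 and 4.19 to 7.13 RPKM in HF and 60.1 to 67.1 and 57.3 to 65.0 in HB. Both HB libraries were thus far above both HF libraries, with a ratio of means of 17.0. On the log2(RPKM + 1) scale, which understates low genes, the difference was 3.88 (SE 0.36, 2 libraries per group), first among 10687 genes tested, the rank for which it had been noted. It was 3.28 without HF library 1 and 4.48 without HF library 2.

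**Figure D2:**
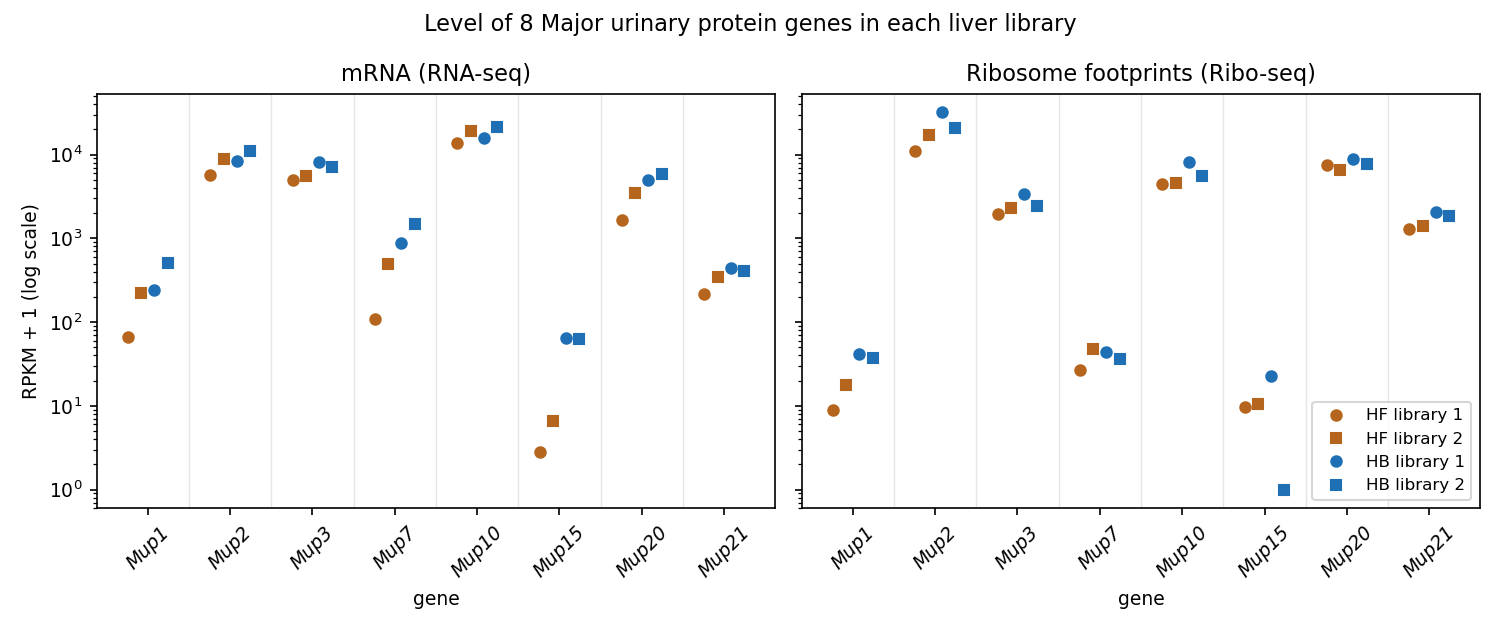
Level of each member in each library (RPKM + 1, log scale, vertical axis) in the mRNA (left) and in footprints (right), with HF in brown and HB in blue, circles for library 1 and squares for library 2. In the mRNA the brown circle of HF library 1 is the lowest point of all 8 genes, and among footprints the blue circle of HB library 1 is the highest of 7 genes.

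All 8 members had a positive mRNA difference, HB minus HF, with a median of 0.90 on the log2 scale beside -0.19 over all genes tested. With the cut-offs of the study, an absolute log2 difference above 1 with p below 0.001 before adjustment, 1 member, Mup15, was past them on the higher side and 0 on the lower, while limma called 2.3% of all genes higher by that rule. Both HB libraries were above both HF libraries in 6 of 8 members, against 24.8% of all genes. Since the members were picked from this contrast, nothing is read from either count. HF library 1 held the lowest mRNA value of all 8 members, and without it the median of the members was 0.55 and Mup10 turned to -0.05. HB library 2 held the highest value in 5 members and HB library 1 in 3.

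Footprints gave the same genes another order, with Mup2 ahead of Mup20, Mup10, Mup3 and Mup21 in all 4 libraries. Mup2 footprints were at 10999 and 16910 RPKM in HF and at 31943 and 20707 in HB, from 2659 to 16169 reads. The groups did not overlap, but the HB libraries differed by more than the gap between the groups. The log2 difference was 0.92 (SE 0.58) and was not called (limma, Benjamini-Hochberg adjusted p = 0.630).

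Mup20, second in footprint level, stood at 7415 and 6552 RPKM in HF and at 8943 and 7708 in HB, a log2 difference of 0.25 (SE 0.40, limma, adjusted p = 0.828). The lower HB library was only just above the higher HF library. Mup10 had 4486 and 4524 footprint RPKM in HF and 8062 and 5537 in HB, with both HB libraries higher and a log2 difference of 0.57 (SE 0.40, limma, adjusted p = 0.653).

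For Mup3 the footprint levels were 1977 and 2308 RPKM in HF and 3366 and 2426 in HB. HB library 2 was close to HF library 2, and the log2 difference was 0.42 (SE 0.35, limma, adjusted p = 0.666). Mup21 footprints, at 1290 and 1422 RPKM in HF and 2087 and 1839 in HB, kept the widest gap between the groups relative to their spread among these 5 genes. Their log2 difference of 0.53 (SE 0.29) had an unadjusted limma p of 0.131 and an adjusted p of 0.599.

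The 3 members with the largest mRNA ratios gave few footprints. Mup1 had 3 and 17 reads in HF and 10 and 5 in HB, or 8.00 and 16.6 RPKM against 40.2 and 36.4. Its log2 difference of 1.64 (SE 0.47) passed the cut-offs of the study for footprints, an absolute log2 difference above 1 with p below 0.05 before adjustment, and did not pass after adjustment (limma, adjusted p = 0.493). The counting intervals of HF library 2, 9.69 to 26.6 RPKM, and of HB library 2, 11.8 to 85.0, overlapped, and without HF library 1, whose 3 reads are at the floor used here, the gene was no longer called (log2 difference 1.16).

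Mup7 footprints were 26.0 and 46.8 RPKM in HF and 43.1 and 35.5 in HB, from 5 to 49 reads. The groups overlapped, and the log2 difference was 0.16 (SE 0.41, limma, adjusted p = 0.892). Mup15 gave 3 and 9 footprint reads in HF and 5 and 0 in HB, or 8.70 and 9.58 RPKM against 21.9 and 0. The groups overlapped, and 3 reads in HB library 2, the floor used here for a count of 0, would be 23.8 RPKM, with an exact Poisson 95% upper limit of 29.2. The fitted log2 difference of -1.08 (SE 1.54, limma, adjusted p = 0.807) depends on that 0 and turned to 1.18 without this library, so a footprint difference of Mup15 was not detectable in either direction at this depth.

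By the rule for footprints, 1 of 8 members was called higher and 0 lower, beside 1.58% of all genes called higher. No gene of the 11190 tested passed an adjusted p under 0.05 with limma, and 1122 had an unadjusted p under 0.05. Of the 8 members, 7 lay above 0, with a median of 0.48 beside -0.43 over all genes. That median was 0.24 without HB library 1 and 0.75 without HB library 2. Both HB libraries were above both HF libraries in 6 of 8, against 9.07% of all genes, but these 6 share reads and libraries and are not separate measurements. HB library 1 held the highest footprint value of 7 members. The sign depends on scaling. When RPKM were rescaled to a common sum in each library, the median of all footprint differences went to -1.19 and that of the members to -0.40. There 2 of 8 members lay above 0 and 0 were called higher. Mup3, Mup7, Mup10, Mup20 and Mup21 turned in sign, to between -0.69 (Mup7) and -0.31 (Mup10). In that sum the small RNA entry Mir122 took 24.1% and 29.5% in the HB libraries and 6.33% and 10.6% in HF. With a common sum over protein-coding genes alone, a setting chosen after seeing the data, the members' median was 0.34 and that of all genes -0.55.

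**Figure D3:**
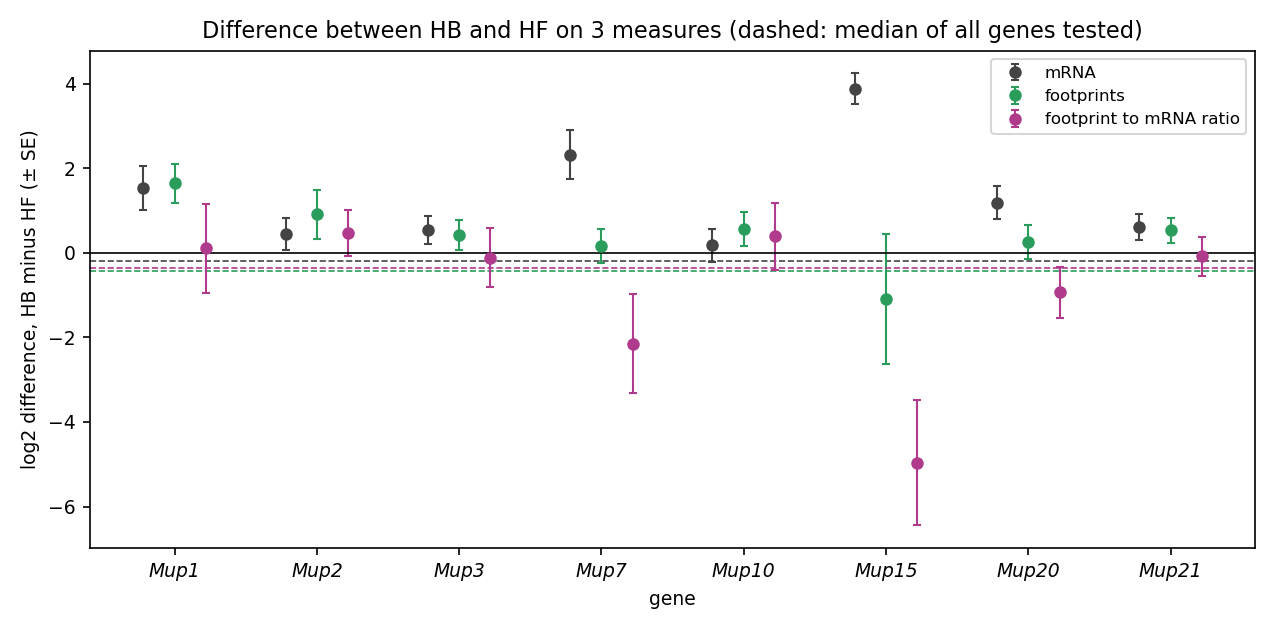
Difference between HB and HF (log2, vertical axis, points with SE, 2 libraries per group) in mRNA (grey), footprints (green) and the footprint to mRNA ratio (magenta) for the 8 members. Dashed lines give the median of all genes tested, and the points of Mup15 spread from 3.88 in mRNA to -1.08 in footprints and -4.96 in the ratio.

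Summed over the 8 genes, mRNA came to 26522 and 37787 RPKM in HF and 38786 and 47916 in HB. The lower HB library was only just above the higher HF library, and the ratio of means was 1.35. In reads this was 2.28% and 3.25% of the library in HF and 3.35% and 4.13% in HB. Summed footprints were 26210 and 31789 RPKM in HF and 54506 and 38290 in HB, a ratio of 1.60, with no overlap and with HB library 1 well above HB library 2. Its log2 value of 0.68 turned to -0.11 when RPKM were rescaled to a common sum in each library. An exact permutation test of 2 against 2 libraries cannot go below a two-sided p of 0.333, so no test of the sums is given. Over all Mup symbols in the values the ratios were 1.42 and 1.61.

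The sum was also divided between the 5 near-identical members and the other 3, of which Mup20 still shares coding windows with pseudogenes. Mup1, Mup2, Mup7, Mup10 and Mup15 together had mRNA of 19744 and 28483 RPKM in HF and 25248 and 34591 in HB, which overlapped, and footprints of 15527 and 21507 in HF and 40110 and 26317 in HB, which did not. Mup3, Mup20 and Mup21 together had mRNA of 6779 and 9304 RPKM in HF and 13538 and 13325 in HB. These groups did not overlap and the ratio was 1.67. Their footprints were 10683 and 10281 RPKM in HF and 14396 and 11973 in HB, again apart, with a ratio of 1.26.

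Mup10 and Mup2 took different shares of the sum in the 2 assays. Mup10 made 52.3% and 50.3% of the summed mRNA in HF and 40.6% and 44.6% in HB, but 14.2% to 17.1% of the footprints. Mup2 made 21.4% to 23.3% of the mRNA and 42.0% to 58.6% of the footprints. Since these 2 genes share most windows, their split rests on how reads were assigned. Mup20 made 6.17% and 9.16% of the mRNA in HF and 12.9% and 12.2% in HB, and 16.4% to 28.3% of the footprints.

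**Figure D4:**
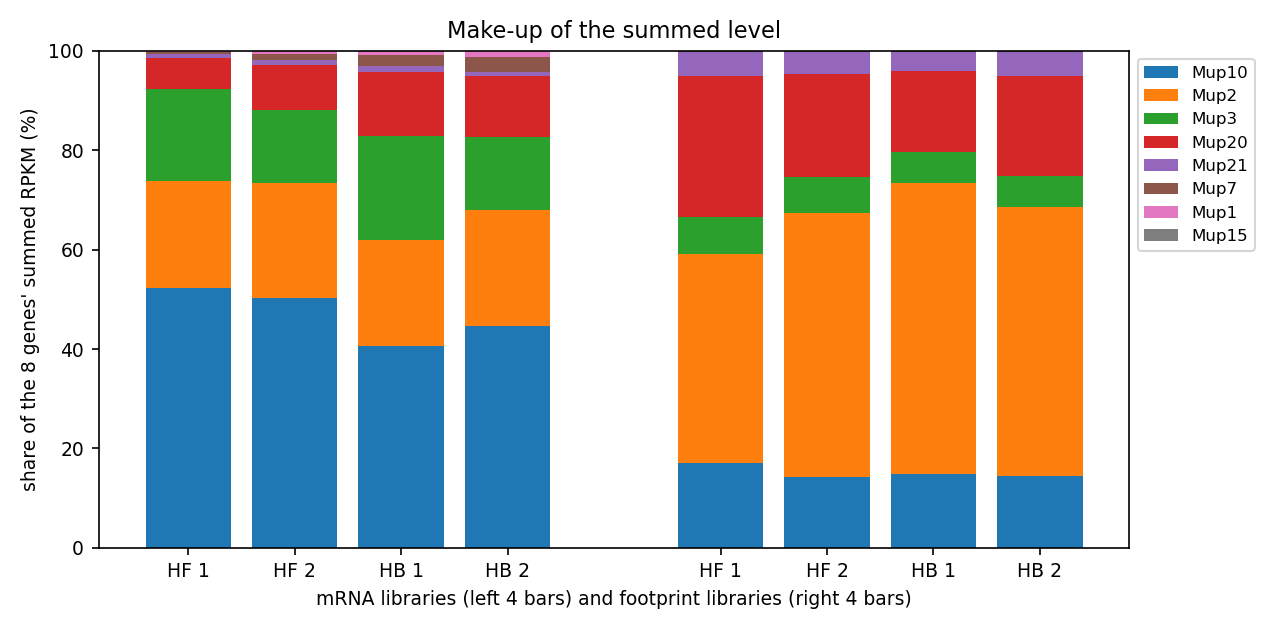
Share of each member in the summed RPKM of the 8 genes (%, vertical axis) in the 4 mRNA libraries and the 4 footprint libraries. Mup10 (blue) makes 40.6% to 52.3% of the mRNA bars and Mup2 (orange) 42.0% to 58.6% of the footprint bars.

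The ratio of footprint to mRNA RPKM, the translation efficiency (TE) of the study, was taken from libraries with the same group and number, although the sources do not say that these share an animal. Mup21 had the highest ratios of the abundant members, at 5.96 and 4.07 in HF and 4.75 and 4.57 in HB, with HB between the 2 HF values. Mup3, its nearest relative in sequence, had 0.40 and 0.42 in HF and 0.42 and 0.34 in HB. Mup20 had 4.53 and 1.89 in HF and 1.78 and 1.32 in HB, so that its HB values were below both HF values while HF library 1 stood apart.

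Mup2 had ratios of 1.93 and 1.93 in HF and 3.84 and 1.86 in HB, the last 2 on either side of HF. The gene length behind its RPKM differed between the assays, 761 bases in RNA-seq and 905 in Ribo-seq, and with reads scaled by library total alone the ratios were 2.29 and 2.29 in HF and 4.57 and 2.21 in HB. Mup10 ran from 0.24 to 0.51, and Mup1 from 0.072 to 0.166, with overlap in both. Mup7 had ratios of 0.239 and 0.096 in HF and 0.048 and 0.024 in HB. Both HB values were lower, on 5 to 49 footprint reads a library.

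Mup15 had ratios of 4.75 and 1.74 in HF and 0.34 and 0 in HB. Its TE difference of -4.96 (SE 1.48) was the lowest of 9455 genes. That rank repeats its mRNA difference on the other side of the ratio, over footprint counts of 0 to 9 reads, and is given as a description. By the rule for TE, an absolute log2 difference above 2 with p below 0.05 before adjustment, 1 of 8 members, Mup15, was past it on the lower side and 0 on the higher, while limma called 4.6% of all genes lower and 1.49% higher. This too restates the choice of Mup15. The median of the members was -0.10 and that of all genes -0.35. The members' median turned to 0.02 without HF library 1, with 4 of 8 above 0, and was -0.32 without HF library 2, -0.37 without HB library 1 and -0.02 without HB library 2.

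Of the other genes of the cluster, 11 were tested in the mRNA, and 1 of them, Mup13, was called higher, beside 2.3% of all genes (90.5 and 267 RPKM in HF, 869 and 709 in HB, log2 difference 2.33, SE 0.44, limma adjusted p = 0.00799). It was not called with no filter, without HF library 1 (1.55) or without HB library 1 (2.18). Of its 28-base windows 96.9% occurred in another Mup gene, and of its 50-base windows 93.6%, so its level is as uncertain as that of the near-identical members and is not a separate measurement. Mup14 (8.15 and 75.3 RPKM in HF, 189 and 278 in HB), Mup11 (462 and 964 in HF, 2624 and 1971 in HB) and Mup19 (340 and 942 in HF, 1666 and 1640 in HB) had log2 differences of 3.12, 1.77 and 1.54 and passed only the rule with an adjusted p under 0.05, by which limma called 5.01% of all genes higher. Mup12 (90.6 and 309 RPKM in HF, 320 and 828 in HB), Mup17 (175 and 272 in HF, 336 and 560 in HB), Mup9 (1.94 and 4.70 in HF, 4.12 and 12.0 in HB) and Mup5 (3.54 and 5.24 in HF, 5.24 and 8.37 in HB) had differences of 0.52 to 1.61 and were called by neither rule. Mup8 was at 722 and 1471 RPKM in HF and 655 and 955 in HB, with overlap, and Mup16 (19.7 to 35.4 RPKM) and Mup18 (18.6 to 36.2) overlapped as well, and none of these 3 was called.

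Footprints of these genes did not follow their mRNA one by one. Mup8 was listed at 0 in all 4 Ribo-seq libraries, and so was Mup22, which the RNA-seq values do not list. Mup6, with no more than 0.72 RPKM of mRNA in any library, had 28.6 and 59.6 footprint RPKM in HF and 151 and 78.3 in HB, and Mup4, with at most 0.32, had 5.87 and 12.9 in HF and 22.2 and 8.03 in HB. Mup6 was called higher (log2 difference 1.37, limma adjusted p = 0.493), as was Mup19 (114 and 112 RPKM in HF, 394 and 201 in HB, log2 difference 1.30, same adjusted p), 2 of 12 tested, beside 1.58% of all genes called higher. With a common sum the differences were 0.52 and 0.44, and neither gene was called there or without HF library 1, HF library 2 or HB library 1. Mup16 was called lower on 1 and 6 footprint reads in HF and 0 in both HB libraries, beside 7.86% of all genes called lower, so that 3 of its 4 libraries were at the floor. Mup11 footprints were 56.4 and 139 RPKM in HF and 323 and 147 in HB, Mup14 footprints 117 and 47.0 in HF and 273 and 60.9 in HB, and the other Mup genes outside the 8 stayed below 40 RPKM.

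The nearest 3 protein-coding genes on either side of the cluster that passed the filter in the mRNA were looked at as neighbours outside the family. Inip, Hsdl2 and Ptbp3 lie before it and Slc31a2, Fkbp15 and Slc31a1 after it, and 0 of 6 were called in the mRNA or in footprints. Slc31a1, the copper importer, had 21.2 and 21.9 mRNA RPKM in HF and 50.2 and 35.2 in HB (log2 difference 0.93, limma adjusted p = 0.0299). Fkbp15 had 11.4 and 11.2 RPKM in HF and 6.13 and 5.74 in HB, a difference of -0.83 (limma adjusted p = 0.0325). The 2 genes thus went opposite ways, both within a log2 of 1.

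Liver genes known to be higher in males share growth hormone and STAT5b control with the Mup genes. Of 17 such genes tested in the mRNA, limma called 2 higher and 1 lower, beside 2.3% and 6.56% of all genes, and 14 of 17 lay above 0, as did 39.8% of all genes, with a median of 0.81 beside -0.19. Without HF library 2, 6 were called higher and 0 lower. The count called lower was 0 without HB library 1 and 2 without HF library 1, and without HB library 2 the median was 0.50 with 3 called higher. With no filter on low values 1 was called higher and 0 lower, and with libraries shifted to a common median 3 were called higher and 0 lower. Cyp4a12b, an arachidonic acid hydroxylase, was at 7.34 and 10.5 RPKM in HF and 42.7 and 37.4 in HB (log2 difference 2.07, adjusted p = 0.00523), and its neighbour Cyp4a12a at 36.8 and 24.6 in HF and 70.5 and 82.9 in HB (1.32, adjusted p = 0.0106). Footprints of Cyp4a12b were at 35.5 and 23.3 RPKM in HF and 60.1 and 20.6 in HB (log2 difference 0.29). Those of Cyp4a12a were at 46.8 and 12.9 in HF and 17.7 and 11.6 in HB (-0.75). The groups overlapped in both genes and limma called neither. These 2 P450 genes are close paralogs, and the sequence they share was not checked here. Selenbp2, a selenium-binding protein, was at 89.4 and 100.3 RPKM in HF and 26.2 and 43.5 in HB and was called lower (-1.46, adjusted p = 0.00928). The most abundant of the list, Gstp1 (658 and 1052 RPKM in HF, 1004 and 1663 in HB) and Cyp2d9 (521 and 735 in HF, 711 and 899 in HB), overlapped between the groups.

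In footprints 3 of 16 male-biased genes were called higher and 0 lower, beside 1.58% and 7.86% of all genes, with a median of 0.25 beside -0.43, and all 3 had an adjusted p of 0.493 (limma). Without HF library 1, HF library 2 or HB library 1, 1 was called higher in each case, and without HB library 1 2 were called lower. The median was 0.05 without HF library 2, 0.57 without HF library 1, 0.47 without HB library 2 and -0.01 with a mean RPKM of at least 5, where 1 was called higher. With a common sum 1 was called higher as well, and the median turned below 0, as given with the processing. Serpina1e, a protease inhibitor of plasma, had 46.9 and 22.1 RPKM in HF and 82.2 and 87.3 in HB. Sult5a1, a sulfotransferase, was at 0 and 0.82 in HF and 6.71 and 6.08 in HB, and Hsd3b5, a steroid dehydrogenase, at 1.60 and 0 in HF and 9.68 and 4.39 in HB. At the gene lengths that give whole reads, Sult5a1 rested on 0 and 1 footprint reads in HF and 2 and 1 in HB, all at the floor of 3 reads. Hsd3b5 rested on 1 and 0 reads in HF and 4 and 1 in HB, with HB library 1 alone above the floor, so nothing is read from these 2 calls. The Sult5a1 mRNA, given after its values were seen, was at 10.6 and 40.0 RPKM in HF and 5.66 and 9.92 in HB, with a log2 difference of -1.36 that was not called.

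Of 12 female-biased liver genes tested in the mRNA, 0 were called higher and 2 lower, beside 2.3% and 6.56% of all genes, and 8 lay below 0, a share near the 60.2% of all genes, with a median of -0.80 beside -0.19. That median was -0.24 with no filter and -0.20 without HF library 1, where 2 were called higher. Without HF library 2, 6 were called lower, and 1 was called lower with a pseudocount of 0.1, with no filter, with a mean RPKM of at least 5 or with a common median. Cyp2b13, a P450 enzyme, was at 7.13 and 8.48 RPKM in HF and 0.78 and 0.83 in HB (log2 difference -2.28, limma adjusted p = 0.00493). Slco1a4, an organic anion transporter, was at 33.3 and 30.0 in HF and 13.8 and 5.34 in HB (-1.75, adjusted p = 0.0104). Cyp2b13 footprints were at 8.24 and 9.59 RPKM in HF and 22.8 and 11.3 in HB. Cyp2b9 (mRNA highest at 120 RPKM in HF library 2 and lowest at 48.3 in HB library 2, with no overlap) and Acot3 (highest at 36.9 RPKM in HF library 1, with HB at 23.1 and 25.7 between the HF values) were the most abundant of the list and were not called. In footprints 1 of 16 was called lower, beside 7.86% of all genes, with 0 without either HF library and 4 without HB library 2. It was Cyp39a1, at 12.0 and 10.7 RPKM in HF and 1.29 and 4.67 in HB (limma, adjusted p = 0.494), on 14 and 34 reads against 1 and 2. The count was 0 with a common median, a pseudocount of 0.1 or either other filter tried (none, or a mean RPKM of at least 5), and 4 with a common sum.

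Receptors, kinases, feedback genes and transcription factors of the growth hormone pathway lay below 0 in the mRNA in 20 of 26 cases, beside 60.2% of all genes, with a median of -0.41 beside -0.19. The median was -0.14 when libraries were shifted to a common median, where that of all genes was 0.08, and -0.25 without HF library 1. Of the 26, 1 was called higher and 2 lower, beside 2.3% and 6.56% of all genes, and leaving out each library gave 1 to 4 called lower, with 4 without HB library 2 and 1 without any of the others. With a common median 0 were called lower, and with no filter 0 were called in either direction. The growth hormone receptor Ghr was at 58.3 and 73.2 RPKM in HF and 120 and 84.5 in HB and was not called, nor was Stat5b at 14.2 and 15.5 in HF and 7.68 and 8.67 in HB (log2 difference -0.79, limma adjusted p = 0.0389). Igf1, the circulating growth factor that growth hormone induces in liver, was called lower, at 198 and 158 RPKM in HF and 71.2 and 73.7 in HB (-1.28, adjusted p = 0.00931). Its footprints were 124 and 115 in HF and 72.9 and 76.7 in HB, with a log2 difference of -0.67 that limma did not call.

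Bcl6, a repressor that competes with STAT5, was called lower in the mRNA, at 12.9 and 24.9 RPKM in HF and 4.52 and 6.15 in HB (-1.59, limma adjusted p = 0.00980). Onecut1, the liver transcription factor HNF6, was called higher, at 1.13 and 0.46 RPKM in HF and 25.3 and 7.01 in HB (3.04, limma adjusted p = 0.00526). Bcl6 footprints were at 7.06 and 3.59 RPKM in HF and 4.10 and 17.8 in HB, with a log2 difference of 0.69. Those of Onecut1 were at 4.24 and 1.04 in HF and 27.7 and 0 in HB (0.71). The groups overlapped in both genes, and limma called neither. In footprints 1 of 25 was called, beside 7.86% of all genes called lower, and 0 without either HF library, 3 without HB library 1 and 2 without HB library 2. The count was 0 with a common median, no variance trend or the replicate block, and 7 with a common sum. It was the prolactin receptor Prlr, at 42.8 and 41.6 RPKM in HF and 19.9 and 19.8 in HB (-1.05, adjusted p = 0.493). The most abundant of the list, the transcription factors Cebpb (414 and 328 mRNA RPKM in HF, 148 and 247 in HB) and Cebpa (152 and 169 in HF, 202 and 186 in HB), were not called.

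Of 10 other lipocalins of the liver tested in the mRNA, 1 was called higher and 2 lower, beside 2.3% and 6.56% of all genes, with a median of 0.12 beside -0.19. The median was -0.23 without HB library 2, -0.01 without HF library 1, 0.26 without HF library 2 and 0.22 without HB library 1, where 2 were called higher. With no filter 0 were called lower, and with a mean RPKM of at least 5, 1 was. Apom, which carries sphingosine-1-phosphate on HDL, was at 18.4 and 17.6 RPKM in HF and 82.9 and 52.7 in HB (log2 difference 1.82, limma adjusted p = 0.00526). The acute phase protein gene Orm3 was at 65.7 and 21.9 in HF and 5.22 and 6.15 in HB (-2.55, adjusted p = 0.00581), and the prostaglandin D synthase gene Ptgds at 3.62 and 7.25 in HF and 0.61 and 0.89 in HB (-1.82, same adjusted p).

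Among the abundant lipocalins, the retinol carrier Rbp4 was at 2358 and 3033 mRNA RPKM in HF and 4805 and 5988 in HB (1.00, limma adjusted p = 0.0480) and Ambp at 1214 and 1793 in HF and 2106 and 2192 in HB (0.54, adjusted p = 0.229). Rbp4 footprints, at 2891 and 2893 in HF and 3622 and 2508 in HB, overlapped. In footprints 1 of 8 was called lower, beside 7.86% of all genes, with 0 without HF library 1 or with a mean RPKM of at least 5, and 4 without HB library 1. It was Orm2, at 6.66 and 2.45 RPKM in HF and 0 in both HB libraries (limma, adjusted p = 0.493). At a gene length of 774 bases, the possible one nearest to its GENCODE transcript of 775, this was 2 reads in each HF library, so all 4 values were at the floor and nothing is read from the call.

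Genes outside the family were ranked by how closely they followed the summed members over the 8 libraries, on log2(RPKM + 1) centred within each assay. The first 5 of 9437 were Ndufb11, Snrpd3, Wfdc17, Atp5l and Psmb5, with Pearson r of 0.951 to 0.964 as a description, and 32 genes had an r above 0.9. The points share the 2 groups and the library totals. Atp5l, a subunit of mitochondrial ATP synthase, had 213 and 302 mRNA RPKM in HF and 382 and 465 in HB, and 141 and 148 footprint RPKM in HF and 349 and 261 in HB. Psmb5, a catalytic subunit of the proteasome, had 123 and 152 mRNA RPKM in HF and 157 and 243 in HB, and 23.7 and 36.9 footprint RPKM in HF and 103 and 56.6 in HB. With the 4 mRNA libraries alone, 1 of these 5, Snrpd3, stayed among the first 5.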

How the data were processed

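Liver RNA was measured by RNA-seq and Ribo-seq in 8 libraries, 2 per group and assay. FANSe2 mapping to mm10 was done by the authors, who deposited 1 RPKM value for each gene in each library. The annotation is not given in the sources used here. The 2 HF libraries and 2 HB libraries of an assay were compared by limma (version 3.58.1, R 4.3.3; a linear model with a trended prior variance) on log2(RPKM + 1), keeping genes whose mean RPKM reached 1, with two-sided p-values and Benjamini-Hochberg adjustment. RPKM are not counts, so the count test that the study used, edgeR, was not run. TE was log2((RPF RPKM + 1)/(mRNA RPKM + 1)). All 8 members passed the filter in both assays.

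Library totals and gene lengths were recovered from the steps of 1 read between low values. Whole reads came out for 97.2% to 100.0% of the small RNA entries used in Ribo-seq (within 0.05 of a read) and for 60.3% to 64.0% of 600 low genes in RNA-seq (within 0.002, with lengths taken from Ribo-seq), and a value on at most 3 reads was taken as at the floor. Positions, transcripts and coding sequences came from GENCODE M21, where 22 of 22 Mup symbols matched; windows were matched exactly on both strands.

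The members and lists were chosen with earlier results of these data known. Named genes were the 8 members, every other Mup symbol with an RPKM of at least 1 in any library, in each list the called genes and the 2 with the highest mean mRNA RPKM, and the 5 genes with the highest r. Of the cell type markers, those called in the mRNA or footprints were named and the 2 most abundant were not. Ghr, Stat5b, the Sult5a1 mRNA, the sex and gland genes, the neighbours of the cluster, Mir122, Snord43 and Snord14d lie outside this rule. They were named after their values were seen. The limma steps were tested on simulated reads, where changes were put only into genes well above the filter in both assays. Reads shared between paralogs were not simulated. The test thus covers neither low members such as Mup15 nor shared reads. The alternatives tried were: pseudocount 0.1; a mean RPKM floor of 5 or none; other scalings; no variance trend, a replicate block, adjusted p, an interaction term for TE, leaving out each library, all Mup symbols and the mRNA libraries alone.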

Additional observations from a re-analysis of the deposited data

How the results depend on the processing

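The replicate number was also used as a block. Same-numbered libraries did not deviate together (r of -0.10 in the mRNA and -0.01 in footprints), so they share only a number. The members were picked on the mRNA contrast, so counts of members past its cut-offs, and past those of TE, describe the settings only. In the mRNA that count was 1 on the higher side, 4 with the replicate block, 2 with adjusted p, and 1 to 3 when each library was left out, with 3 without HF library 2. With adjusted p, 0 members were called higher in footprints and 0 were past the TE cut-off. Of the male-biased mRNA, 6 were called higher with the block in place of 2, and of the female-biased 5 lower in place of 2. By the rule with an adjusted p under 0.05, 6 male-biased genes were called higher in the mRNA and 1 lower, and 0 and 3 female-biased genes. The growth hormone list had 1 and 4, and the lipocalins 2 and 3. Of all genes 5.01% were called higher and 12.7% lower by this rule. Of the member differences in the mRNA, 2 values turned in sign, Mup10 without HF library 1 (-0.05) and without HB library 2 (-0.04). In footprints 12 and in TE 12 values turned, while other filters, the variance trend and the block leave a difference as it is.

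Scaling to a common sum, with and without the Mup genes, gave a footprint median of the members of -0.40 in both, 0 members called higher in both, a log2 ratio of summed footprints of -0.11 in both (0.98 with a common median), and a TE median of -0.93 and -0.96. The single footprint differences that turned in sign in these 2 settings were -0.46 and -0.46 for Mup3, -0.69 and -0.69 for Mup7, -0.31 and -0.31 for Mup10, -0.62 and -0.63 for Mup20, and -0.34 and -0.35 for Mup21. Mup1, Mup2 and Mup15 kept their sign there. Footprint medians of the lists were -0.60 and -0.60 (male-biased), -1.15 and -1.16 (growth hormone) and -0.76 and -0.76 (lipocalins). The sizes of Mir122, Snord43 and Snord14d in that sum are given with the footprint results, and the cause was not tested. Members called lower in TE were 2 in both, 2 without a variance trend and 0 with a pseudocount of 0.1.

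Leaving out each library gave 0 to 2 members called higher in footprints (0 without HF library 1, 2 without HB library 2), 0 to 1 called lower (1 without HB library 1), Mup7 footprint differences of -0.25 to 0.57 and Mup15 of -3.34 to 1.18. In the mRNA the female-biased median ran from -1.13 to -0.20 (-0.24 with no filter) and that of the lipocalins from -0.23 to 0.26, and in footprints that of the lipocalins from -0.64 (without HB library 1) to 0.64. Members called lower in TE were 0 without HF library 1 and 2 without HB library 1. The growth hormone median was -0.14 with a common median. Of the 5 genes most like the members, 1 remained with mRNA libraries alone.

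Over all genes the mRNA calls were 246 higher and 701 lower, against 498 and 1229 with the block, 77 and 188 with no filter, 540 and 291 with a common median, and 535 and 1353 with adjusted p. Footprint calls were 177 and 879, against 42 and 2816 with a common sum, 41 and 2784 without the Mup genes, and 349 and 421 with a common median. With a mean RPKM of at least 5, 311 footprint genes were called lower. TE calls were 141 and 435, against 41 and 1346 with a common sum, 41 and 1398 without the Mup genes, and 71 and 179 with a mean RPKM of at least 5. HB footprint libraries of 141890 and 257086 reads limit what Mup1, Mup7 and Mup15 footprints can show.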
